A study of Mus musculus with 1012 samples.

Results

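The libraries examined here are the Live-seq biopsies of RAW cells that had received lipopolysaccharide (LPS), the RAW_LPS biopsies. Live-seq draws a small volume of cytoplasm out of a living cell through a hollow FluidFM probe and amplifies its RNA by a modified Smart-seq2 protocol, so that each library is a cytoplasmic sample of a single cell. Members were chosen by their labels alone (Live-seq, RAW264.7 or RAW264.7 subline G9, LPS-treated), and 50 of the 296 Live-seq biopsies and of the 1012 libraries in the series met this rule. They fell into 5 labelled batches, with 11 biopsies in batch 5Reseq, 4 in batch 6, 16 in batch 7, 9 in batch 8_8 and 10 in batch 9_4. The 11 biopsies of batch 5Reseq came from wild-type RAW264.7, a mouse macrophage-like line, and the other 39 from RAW-G9, a single clone of that line that carries a Tnf promoter-driven mCherry reporter and a GFP fusion of RelA. Line and batch therefore cannot be told apart for batch 5Reseq. LPS was given at 100 ng/ml according to the methods of the study (its series text has 40 ng/ul), and cells were sampled 4 to 5 h later. Other libraries served as a frame of reference: whole RAW-G9 cells after the same treatment, profiled by scRNA-seq in batches 8_8, 9_1 and scRNA (15, 46 and 88 cells), RAW_Mock biopsies of untreated cells (1 in batch 5Reseq and 8, 20, 63 and 12 in batches 6, 7, 8_8 and 9_4), and biopsies of other cells, namely 44 of the brown preadipocyte line IBA and of primary adipose stem and progenitor cells (ASPCs) before (61) or after (37) adipogenic induction. Single biopsies are called by their name in the labels (sample141, for example).

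LPS is sensed on macrophages by Toll-like receptor 4 together with CD14 and MD-2. The receptor signals through MyD88 to the kinase that removes IκB, which frees NF-κB (RelA, c-Rel and their partners) to enter the nucleus, and through TRIF to IRF3, interferon-β and the interferon-stimulated genes. Early outputs are cytokines and chemokines, the inhibitors that end the response (IκBα, A20, SOCS proteins, mRNA-degrading proteins), and enzymes of inflammatory metabolism such as Acod1. The response is known for large differences between single macrophages, and a biopsy samples only RNA present in the cytoplasm when it is drawn.

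The 50 libraries held 69292 to 1074064 counts (median 600516), of which 42061 to 888937 remained after ribosomal protein genes and genes found in the negative controls of the study were left out. Over all features, 1063 to 8466 genes had at least 1 count (median 3942.5), against 3207 to 10072 (median 7901) in the whole cells. Mitochondrial genes took from 0.000981% to 27.6% of the counts (median 7.11%). A total of 6 biopsies carry labels of a cell that was sampled on 2 occasions, and batch 7 holds libraries that stand apart from the rest in how close they lay in a few measures. In that batch, 12 of the 16 biopsies had a mitochondrial share between 4.18% and 5.43% and a left-out share between 12.5% and 15.7%, and their numbers of genes at 50000 counts fell into 2 narrow ranges, 2058 to 2249 in 6 biopsies and 3128 to 3268 in the other 6. The remaining 4 biopsies of batch 7 spanned 0.000981% to 23.6% mitochondrial counts and 740.6 to 4678 genes. Narrow mitochondrial shares were also present outside the RAW_LPS biopsies, since 12 of the 13 IBA biopsies of batch 7 had a mitochondrial share of 4.35% to 5.33% and 12 of its 20 RAW_Mock biopsies one of 6.20% to 7.43%, but the numbers of genes were wider, 2347 to 3718 in these IBA and 1287 to 3033 in these RAW_Mock biopsies, and the left-out share ran from 17.5% to 31.7% in the latter. Over all genes, the mean correlation between pairs of the 12 was 0.478, against 0.303 between the other 4, 0.362 in batch 8_8 and 0.571 in batch 9_4, so that they did not stand apart in that measure. No pair of RAW_LPS libraries held the same counts, with a lowest chi-square per gene of 94.2 in batch 7, where 1 stands for sampling noise of reads alone, against 39.8 to 122 in the other batches. Reads without molecular identifiers cannot show whether libraries share RNA or were mixed, and whether this was so for the 12 was not tested. All 16 were kept, and the 12 are called the even biopsies. Where leaving them out moved a batch 7 sum given below by over 1.5 times, the value of the other 4 biopsies is given too.

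**Figure D1:**
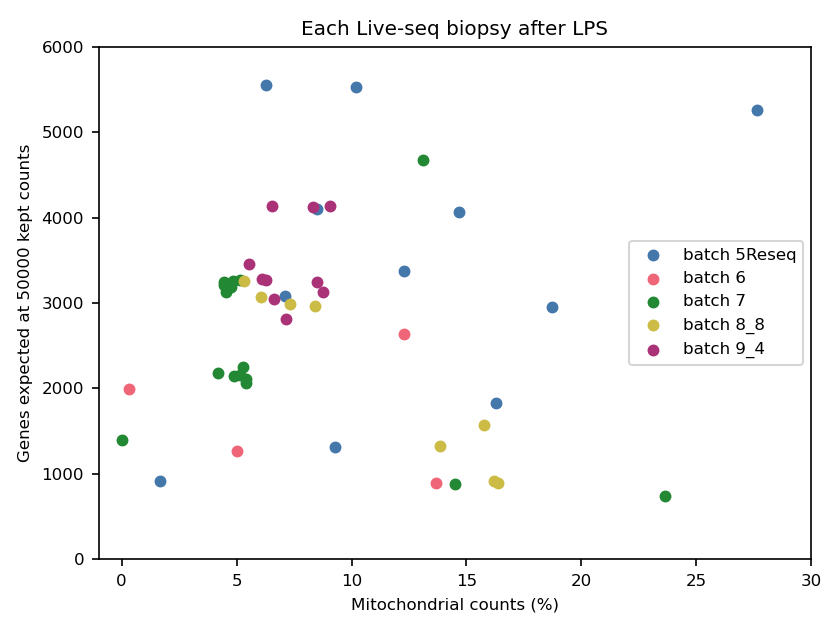
Number of genes expected at 50000 kept counts in each RAW_LPS biopsy (y axis) against the mitochondrial share of its counts (percent, x axis), 1 point per biopsy, coloured by batch. It shows 49 biopsies, since sample402 of batch 8_8 had fewer than 50000 kept counts. In batch 7, 12 of 16 points lie in a band of 4.18% to 5.43% and form 2 groups, at 2058 to 2249 and at 3128 to 3268 genes.

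The biopsies carried the transcripts of macrophages. Of 18 macrophage identity genes, 9 were counted in at least 90% of the 50 biopsies, 7 in 50% to 90% and 2 in fewer, and a biopsy held a median of 16 of them (range 5 to 18). Fcer1g and Tyrobp, which transmit signals of activating immune receptors, were counted in 49 and 48 biopsies, and the scavenger receptor Cd68, the CSF-1 receptor Csf1r and lysozyme (Lyz2) in 46 each. The 2 rare genes were Itgam, the integrin CD11b, with 9 biopsies and Adgre1, the F4/80 antigen, with 6, and these were also counted in only 8.05% and 12.8% of the whole cells. Mesenchymal genes, which would mark RNA from the adipose cells of the same experiments, took at most 0.00238% of the counts of any RAW_LPS biopsy. Of 10 such genes, 5 (Pdgfra, Pdgfrb, Thy1, Dcn and Ly6a) were at 0 in all 50 biopsies, and the most frequent, Col1a1, was counted in 5. The median share of the macrophage genes was 2.06% of the counts, with a range of 0.480% to 8.27%.

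Binding sites for NF-κB are short and palindrome-like, and several cytokine promoters hold them close to the start site. In the RefSeq promoters of GRCm38.p6 (250 bases before to 50 after each start), the motif GGGA, any 2 bases, TTCC was searched on both strands and was present for 1.63% of 27025 genes. Of the 136 genes on the lists used here that had an entry, 15 held the motif. They included 7 of 17 cytokine and chemokine genes (Csf1, Cxcl1, Cxcl10, Cxcl2, Cxcl3, Ifnb1 and Il6) and 2 of 10 NF-κB genes (Nfkb2 and Nfkbia). They also included 4 of 12 interferon-stimulated genes, Cxcl10 again among them. The rest were 2 of 11 constitutive genes (B2m and Pgk1) and 1 of 16 cell cycle genes (Birc5). No gene on the lists of feedback, receptors, inflammatory metabolism or macrophage identity held the motif. Tnf, Clec4e and Ccl3 were among those without a match, and Ccl4 had no entry. The lists hold known targets of LPS, so that these shares are a description of the lists. The windows below are shown because the same motif lies in promoters of genes whose transcripts ranged from none to nearly all of the biopsies. Each runs 5′ to 3′ on the strand of its gene, with the match in capitals (for Nfkbia the match is on the opposite strand), followed in the next sentences by its position.
Cxcl2: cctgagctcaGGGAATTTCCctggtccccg
Cxcl1: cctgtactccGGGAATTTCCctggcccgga
Cxcl3: gagctgcgggGGGAATTTCCccagcccggg
Nfkbia: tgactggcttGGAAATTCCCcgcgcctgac
Cxcl10: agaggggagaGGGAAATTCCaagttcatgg
Il6: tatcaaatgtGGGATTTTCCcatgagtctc
The windows lie upstream of the start site, on the plus strand at chr5:90903792-90903821 (Cxcl2), chr5:90891164-90891193 (Cxcl1), chr5:90786018-90786047 (Cxcl3) and chr5:30013060-30013089 (Il6), and on the minus strand at chr12:55492657-55492686 (Nfkbia) and chr5:92349029-92349058 (Cxcl10). The match of Cxcl1, Cxcl2 and Cxcl3 reads the same 10 letters and overlaps a match on the opposite strand that begins 1 base later. Nfkbia was counted in 47 of the 50 biopsies and Cxcl2 in 44, whereas Cxcl10 was counted in 11, Il6 in 4, Cxcl3 in 1 and Cxcl1 in none. A match is a description of the letters and not a bound site.

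Tnf, Clec4e, Ccl4 and Ccl3 were taken as markers of the activated state, and all were counted in most biopsies. Ccl3, which encodes the macrophage inflammatory protein MIP-1α, was counted in 50 of 50 biopsies (exact 95% interval of the share 92.9% to 100%). Ccl4, which encodes the related MIP-1β, was counted in 49 (98%, 89.4% to 99.9%), and so was Tnf, the cytokine tumour necrosis factor. Clec4e, which encodes the C-type lectin receptor Mincle, was counted in 46 (92%, 80.8% to 97.8%). All 4 markers were present in 44 biopsies and 3 of 4 in the other 6, so that no biopsy lacked more than 1 of them. The intervals cover counting error only, since biopsies of a batch are not independent replicates and reads carried no molecular identifiers.

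All 6 biopsies with a missing marker held counts of the other 3. Tnf was absent from sample141 of batch 7, which held Ccl3 at 9365 CPM (counts scaled to the same total in every library) and had 172663 kept counts. Ccl4 was absent from sample426 of batch 8_8, where Ccl3 stood at 2506 CPM. Clec4e was absent from sample19 of batch 5Reseq, sample353 and sample383 of batch 8_8 and sample842 of batch 9_4, all of which held at least 4564 CPM of Ccl3. Among them, sample353 was also low for Tnf, at 76.9 CPM. With a limit of 5 counts in place of 1, detection was the same for Tnf, Ccl4 and Ccl3 and was 45 of 50 for Clec4e. After every biopsy was brought to 50000 counts (49 biopsies), the expected shares were 97.9% for Tnf, 91.3% for Clec4e, 97.1% for Ccl4 and 99.9% for Ccl3.

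The background for these shares came from cells that do not use the genes. In IBA biopsies (median 593628 total counts), Tnf was counted in 0 of 44 (exact 95% upper bound 8.04%), Clec4e and Ccl4 in 1 each and Ccl3 in 2, none of them with more than 1 count. In ASPC biopsies (median 443941 counts before and 608826 after adipogenic induction), Tnf was counted in 0 of 98 and Clec4e, Ccl4 and Ccl3 in 1, 2 and 8. No IBA or ASPC biopsy reached 5 counts of any of the 4. Biopsies of RAW_Mock cells were not free of them, with at least 1 count in 59.6% for Tnf, 59.6% for Clec4e, 44.2% for Ccl4 and 63.5% for Ccl3, and with all 4 in 22.1%. Detection alone thus did not separate RAW_LPS from RAW_Mock biopsies, and levels are given next.

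Levels were taken per batch from the summed counts of its biopsies, which weights batches equally. Tnf (chr17:35199381-35202007, minus strand) stood at 2261 CPM in batch 5Reseq, 3131 in batch 6, 1772 in batch 7, 1666 in batch 8_8 and 2231 in batch 9_4, with a mean of 2212 ± 578.4 CPM (SD, n = 5 batches). Clec4e (chr6:123281789-123289870, minus strand) stood at 1666, 2204, 3686, 2302 and 2734 CPM in the same order (2518 ± 755.4). The 2 genes did not share their order over batches, since Tnf was highest in batch 6 and Clec4e in batch 7. Without the 12 even biopsies, batch 7 stood at 1522 CPM for Tnf, 2887 for Clec4e, 2067 for Ccl4 and 9005 for Ccl3. Ccl4 (chr11:83662584-83664683, plus strand) stood at 7695, 3214, 1505, 1365 and 3278 CPM (3411 ± 2561), with the wild-type batch 5Reseq highest. Ccl3 (chr11:83647844-83649355, minus strand) stood at 10368, 12075, 7366, 4450 and 10268 CPM (8905 ± 3011). Batch 8_8 was lowest for Tnf, Ccl4 and Ccl3. Per kilobase of exon, which allows genes to be compared, the order of mean levels was Ccl3 (11626 CPM per kb), Ccl4 (5169), Tnf (1350) and Clec4e (507.2).

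Whole RAW_LPS cells held the markers at similar levels. In batches 8_8, 9_1 and scRNA, the sums stood at 1472, 2502 and 1783 CPM for Tnf, at 2341, 3047 and 4542 CPM for Clec4e, at 1081, 5195 and 994.3 CPM for Ccl4 and at 7306, 14266 and 7453 CPM for Ccl3. Biopsy and whole-cell batches overlapped for each marker. In RAW_Mock biopsies, the mean of 4 batches was 188.2 CPM for Tnf, 282.4 for Clec4e, 191.6 for Ccl4 and 968.3 for Ccl3, below every RAW_LPS batch for each gene.

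**Figure D2:**
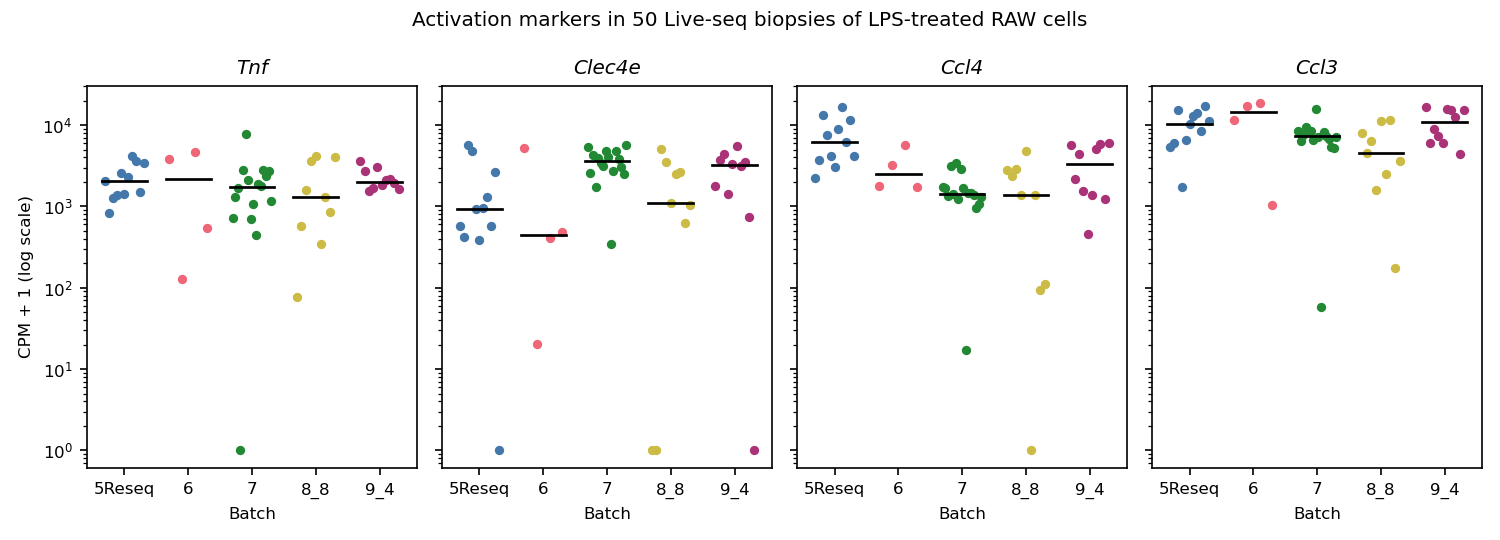
Level of each activation marker in the 50 RAW_LPS biopsies (CPM + 1 on a log axis, y axis), by batch (x axis). Points are single biopsies and bars the median of each batch. Biopsies without a count lie at the bottom, at 1, namely sample141 for Tnf, sample426 for Ccl4 and 4 biopsies for Clec4e, and Ccl3 has none.

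Within a batch, single biopsies spread over a wide range for each marker. Tnf ran from 833.8 to 4178 CPM in batch 5Reseq (median 2068), from 0 to 7753 in batch 7 (median 1717), from 76.9 to 4161 in batch 8_8 (median 1322) and from 1549 to 3569 in batch 9_4 (median 2013). The 4 biopsies of batch 6 held 3841, 126.9, 4623 and 541.8 CPM of Tnf. Batch 9_4 was thus the narrowest, with no biopsy under 1549 CPM, and batch 7 the widest. The highest level of batch 7 was that of sample206, one of its 4 biopsies outside the even set. The 12 even biopsies ran from 714.2 to 2825 CPM.

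Clec4e ran from 0 to 5615 CPM in batch 5Reseq (median 940), from 340.5 to 5712 in batch 7 (median 3614), from 0 to 5142 in batch 8_8 (median 1094) and from 0 to 5525 in batch 9_4 (median 3244). In batch 6, it stood at 5288, 19.5, 410.3 and 479.01 CPM. The top of the range was thus alike in all 5 batches while the medians differed. Ccl4 ran from 2249 to 16558 CPM in batch 5Reseq (median 6154), from 16.3 to 3388 in batch 7 (median 1432), from 0 to 4731 in batch 8_8 (median 1387) and from 453.3 to 6036 in batch 9_4 (median 3311), with 1791, 3193, 5684 and 1741 CPM in batch 6. Ccl3 ran from 1709 to 17090 CPM in batch 5Reseq (median 10419), from 56.1 to 15585 in batch 7 (median 7272), from 175 to 11476 in batch 8_8 (median 4564) and from 4420 to 16910 in batch 9_4 (median 10857), with 11525, 17273, 18491 and 1037 CPM in batch 6.

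A single biopsy of batch 7 was low for all 4 markers. The library sample269 held 443.7 CPM of Tnf, 340.5 of Clec4e, 16.3 of Ccl4 and 56.1 of Ccl3 and no count of Cd14, at 552126 kept counts and 2047 genes. Acod1 and Sod2 were not low in it, at 7973 and 2597 CPM. The even biopsies ran from 6083 to 13446 and from 1204 to 3089 CPM for these genes. Nfkbia and Cxcl2 were low, at 302.5 and 525.2 CPM against 1250 to 2810 and 635.6 to 2567.5 in the even biopsies. Il1b had no count, against 1170 to 2958 CPM in the even biopsies. These 3 low values were not particular to sample269. The 4 biopsies of batch 7 outside the even set, sample269 included, held 0, 302.5, 1042 and 2180 CPM of Nfkbia. They held 335.9, 525.2, 3516 and 3666 CPM of Cxcl2 and 0, 0, 0 and 670 CPM of Il1b. The mitochondrial share of sample269, 0.000981%, was the lowest of the 50 biopsies. The part of the sample's composition in these low values was not tested.

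Of 27 secreted cytokines and chemokines in the table, which include Tnf, Ccl3 and Ccl4, 4 were counted in at least 90% of the biopsies, 5 in 50% to 90%, 16 in fewer and 2 (Ccl7 and Cxcl1) in none. A biopsy held a median of 10 of them (range 3 to 18) and a whole cell, always RAW-G9, a median of 12. The median was 15 in wild-type biopsies and 9 in RAW-G9 biopsies. In RAW-G9 biopsies without the even biopsies of batch 7 it was 7. The summed share of the 27 genes ranged from 0.266% to 6.44% of the counts (median 1.91%). The chemokine Ccl9 was counted in 45 biopsies and stood at 5519, 2032, 2773, 995.5 and 2929 CPM in batches 5Reseq, 6, 7, 8_8 and 9_4. Cxcl2, a chemoattractant of neutrophils, was counted in 44 biopsies and stood at 3180, 5549, 1497, 1876 and 760 CPM, with 2261 CPM in batch 7 without its even biopsies. Its biopsies differed widely, from 0 to 16928 CPM in batch 8_8, where 5 of 9 had a count, and 12913, 3125, 1571 and 3.30 CPM in the 4 biopsies of batch 6. Only in batches 6 and 7 did every biopsy hold a count of Cxcl2.

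Interleukins were less often counted. Il1b, the precursor of interleukin-1β, was counted in 27 biopsies, 13 of them in batch 7, where its median was 1615 CPM. The sums of Il1b stood at 323.2, 85.1, 1482, 0.699 and 60.9 CPM, with batch 7 highest. That excess lay in the 12 even biopsies, which held 1170 to 2958 CPM each, whereas the other 4 held 0, 0, 0 and 670 CPM and summed to 92.1 CPM. Il27 was counted in 23 biopsies, Csf3 (granulocyte colony-stimulating factor) in 21, and Il1a and Lif in 17 each. Il6 was counted in 4 biopsies, the anti-inflammatory Il10 in 3, Il12b in 2, and Il23a and Ifnb1 in 1 each. These genes were rare in whole cells too, with a count in 4.70%, 0.671%, 2.01%, 8.72% and 1.34% for Il6, Il10, Il12b, Il23a and Ifnb1.

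Of 13 NF-κB subunits and inhibitors, 1 was counted in at least 90% of the biopsies, 8 in 50% to 90% and 4 in fewer. That gene was Nfkbia, which encodes IκBα and is itself an NF-κB target, with 47 biopsies and sums of 1227, 1547, 1563, 701.9 and 2708 CPM. Its median per biopsy was 325.7 CPM in batch 8_8 (range 0 to 3329) and 2017 CPM in batch 9_4 (range 689.3 to 5953), the lowest and the highest median of the 5 batches. The subunits Rela (p65), Nfkb2 (p52), Nfkb1 (p50), Relb and Rel (c-Rel) were counted in 38, 36, 35, 31 and 29 biopsies, and A20 (Tnfaip3), which ends signalling to NF-κB, in 20. In whole cells the same 6 genes were counted in 87.9% to 100% of cells. At 50000 counts, the median expected detection of the 13 genes was 56.1% in biopsies and 95.9% in whole cells.

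Of 14 genes of feedback on signalling and mRNA, none was counted in at least 90% of the biopsies, 5 in 50% to 90% and 9 in fewer. Ier3, an early response gene linked to survival, was counted in 43 and Tnfaip2 in 42, with sums of 202.8 to 675.3 CPM and 242.6 to 1015 CPM over the batches. Without the even biopsies, batch 7 stood at 1320 CPM for Ier3 and 84.6 CPM for Tnfaip2, outside these ranges. Both values rest mainly on a single biopsy. The biopsies outside the even set held 0, 0, 428.3 and 8221 CPM of Ier3 and 0, 0, 0 and 191.2 CPM of Tnfaip2. Zfp36 (tristetraprolin), which binds AU-rich elements and promotes decay of cytokine mRNA, was counted in 23 biopsies, and Zc3h12a (regnase-1), an RNase of cytokine mRNA, in 26. The cytokine signalling inhibitors Socs3 and Socs1 were counted in 24 and 5, and the MAP kinase phosphatase Dusp1 in 8. Of 16 immediate early and stress factors, Junb alone was counted in at least 90% (46 biopsies, 236.1 to 856.7 CPM), Atf3, which restrains cytokine transcription, was counted in 31 and Ier2 in 30, and the other 13 in under 50%. Fos, Fosb and Egr1, whose transcripts peak within an hour of stimulation, were counted in 9, 1 and 5 biopsies.

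Among 18 receptors and surface molecules, 3 were counted in at least 90% of the biopsies, 9 in 50% to 90%, 4 in fewer and 2 (the formyl peptide receptors Fpr1 and Fpr2) in none. Cd14, the LPS co-receptor, was counted in 49 biopsies and stood at 4118, 1642, 4971, 1884 and 2318 CPM in batches 5Reseq, 6, 7, 8_8 and 9_4, with 2105 CPM in batch 7 without its even biopsies. Gpr84, a receptor for medium-chain fatty acids that LPS is known to induce, was counted in 47 (1532, 2069, 1239, 1112 and 1385 CPM). Its sums stayed within a narrower range than those of Cd14. Icam1, an adhesion molecule, was counted in 44 and stood at 554.9, 542.5, 1360, 1503 and 2027 CPM, with 833.9 CPM in batch 7 without its even biopsies. The receptor that senses LPS was itself rarely counted, with 8 biopsies for Tlr4 and 10 for Ly96 (MD-2), against 40.9% and 64.4% of whole cells, whereas Tlr2, which senses bacterial lipoproteins, was counted in 40. The costimulatory molecules Cd40 and Cd86 were counted in 27 and 1.

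Of 18 genes of inflammatory metabolism, 4 were counted in at least 90% of the biopsies, 8 in 50% to 90%, 5 in fewer and 1 (the arginine transporter gene Slc7a2) in none. Acod1, the enzyme that makes itaconate from the citric acid cycle, was counted in 49 and stood at 4945, 2834, 9580, 5475 and 12525 CPM, with 4949 CPM in batch 7 without its even biopsies. Every biopsy of batch 9_4 held at least 8223 CPM of Acod1, whereas in batch 8_8 the range was 0 to 9168. Ldha (lactate dehydrogenase) was counted in all 50, and Sqstm1, the autophagy receptor p62, and the mitochondrial superoxide dismutase Sod2 in 47 and 46. Ptgs2, the inducible cyclooxygenase, was counted in 38, with sums of 702.4, 379.4, 1479, 394.97 and 823.8 CPM. Nos2, which makes nitric oxide, was counted in 11 biopsies and in 66.4% of whole cells, and its sums stayed at or under 113.5 CPM in every batch (26.4 CPM in batch 7, all of it in the even biopsies). Saa3, an acute phase protein, ran from 68.1 to 2040 CPM over the batches, with batch 7 highest. The 12 even biopsies held 1890 to 2994 CPM of Saa3 and the other 4 of batch 7 at most 17.4 CPM.

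Interferon-stimulated genes were counted unevenly over the batches. None of 16 was counted in at least 90% of the biopsies, 4 in 50% to 90% and 12 in fewer, and the share of counts of the list ran from 0 to 1.96% (median 0.146%). Oasl1, known to repress translation of Irf7 mRNA, was counted in 37 biopsies (1822, 762.3, 742.7, 105.6 and 393.7 CPM, with 52.7 CPM in batch 7 without its even biopsies), the ubiquitin-like Isg15 in 35 and the transcription factor Irf7 in 27. Ifit1 was counted in 18, Rsad2 (viperin) in 9 and Mx1 in 4. In batch 8_8, no biopsy held a count of Irf7, and 3 of 9 held Oasl1. In batch 7, Irf7 was counted in 11 of the 12 even biopsies and Isg15 in 12, whereas the other 4 biopsies held neither, and 13 of the 16 genes had no count in these 4. A biopsy held a median of 6 of the 16 genes and a whole cell a median of 7. The median was 9 in wild-type biopsies, 8.5 in the even biopsies of batch 7 and 2 in the remaining RAW-G9 biopsies.

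**Figure D3:**
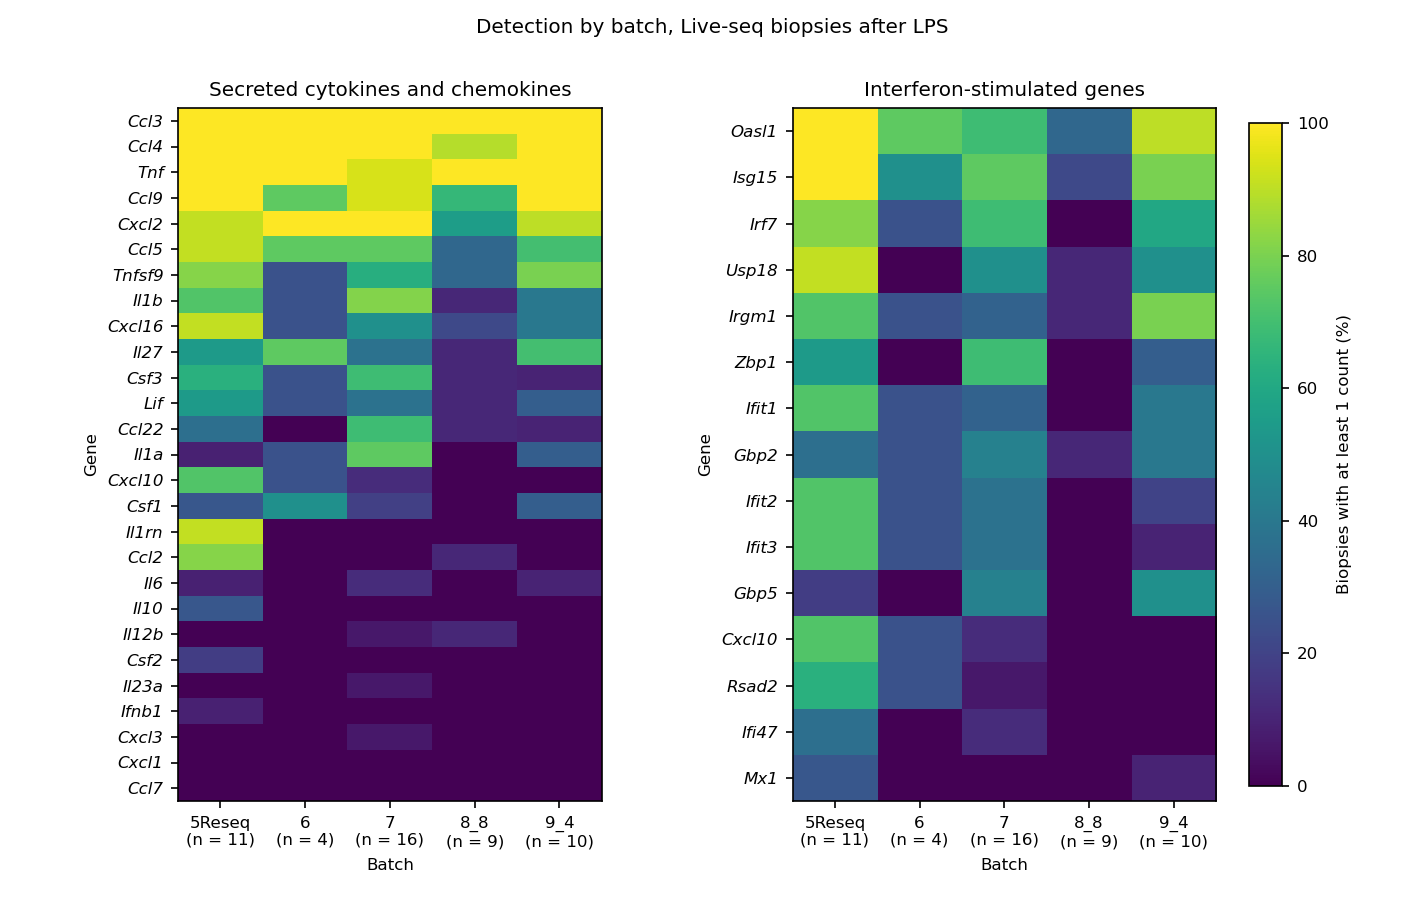
Share of RAW_LPS biopsies with at least 1 count (percent, colour scale) for cytokine and chemokine genes and for interferon-stimulated genes (rows) in each of the 5 batches (columns), from dark (low) to yellow (high). Tnf, Ccl3 and Ccl4 are bright in every batch, and Il1rn (10 of 11 biopsies) and Cxcl10 (8 of 11) are bright in batch 5Reseq alone.

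The wild-type biopsies of batch 5Reseq differed from the 39 RAW-G9 biopsies for a small set of genes. Of the list genes compared, 11 (5.88%) were counted in a share of the wild-type biopsies that was at least 50 points higher, and 2, the transgenes mCherry and EGFP, in a share at least 50 points lower. Of the 15925 features with a count in any biopsy, 0.81% were at least 50 points higher and 0.0816% at least 50 points lower. With biopsies brought to 50000 counts, 7 of the 11 genes kept a difference of 50 points (0.358% of all features), and Zfp36, Usp18, Cxcl16 and Ifit3 did not. Il1rn, the antagonist of the interleukin-1 receptor, was counted in 10 of 11 wild-type and 0 of 39 RAW-G9 biopsies. Its level in the wild-type biopsies ran from 0 to 5057 CPM (median 350.5). Ccl2, a monocyte chemoattractant, was counted in 9 of 11 against 1 of 39, and Itgam in 8 of 11 against 1 of 39. Of the interferon-stimulated genes, Cxcl10 was counted in 8 against 3 and Rsad2 in 7 against 2, and Ifit3 in 8 against 8. The others of the 11 were Cebpb (10 against 10), Zfp36 (10 against 13), Usp18 (10 against 14), Ier5 (7 against 4) and Cxcl16 (10 against 15). In the batch sums, Cxcl10 stood at 1875 CPM in batch 5Reseq and at 14.6 or less in the other batches, and Rsad2 at 2171 against 54.3 or less. Without the even biopsies, batch 7 stood at 35.9 CPM for Cxcl10 and at 0 for Rsad2.

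Genes more frequent in RAW-G9 biopsies were fewer. Lcn2, the siderophore-binding lipocalin, was counted in 0 of 11 against 15 of 39, 12 of them the even biopsies of batch 7, and Rela in 5 of 11 against 33 of 39. The RelA fusion of RAW-G9 was made with GFP, and whether its transcript adds counts to Rela was not tested. mCherry was counted in 0 of 11 wild-type and 32 of 39 RAW-G9 biopsies, and EGFP in 1 of 11 and 28 of 39, the wild-type biopsy with EGFP at 1.73 CPM. In RAW-G9, mCherry stood at 998.4, 1203, 636.8 and 1696 CPM in batches 6, 7, 8_8 and 9_4. In batch 7, mCherry was counted in all 12 even biopsies and in 1 of the other 4, which summed to 151.3 CPM. No test was made, because there was 1 wild-type batch and line and batch cannot be told apart.

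The 10 genes with the highest mean CPM, a scale not corrected for length, were Gm26917, Fth1, Actb, Eef1a1, Ccl3, Lyz2, Acod1, mt-Nd1, Spp1 and mt-Co1, of which Ccl3 and Acod1 are on the lists of LPS response genes. Gm26917, an annotated RNA whose reads can come from repeated ribosomal sequence and are uncertain, ran from 410.6 CPM in batch 6 to 25795 in batch 7, where the even biopsies held 23319 to 38381 and the other 4 summed to 2970. Ferritin heavy chain (Fth1) stood at 7401 to 14034 CPM over the batches and β-actin at 6317 to 13453. Lyz2 stood at 23264 CPM in batch 5Reseq and at 1543 to 6861 in the other batches, and osteopontin (Spp1) at 16226 against 2442 to 4340. Without the even biopsies, batch 7 stood at 11294 CPM for Lyz2 and 6750 for Spp1, still under the wild-type batch. All 12 constitutive genes were counted in at least 90% of the biopsies.

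RNAs on the list of nuclear RNAs were uncommon. Whether each of them, Norad included, stays in the nucleus was not tested. Of 8 nuclear RNAs, none was counted in at least 90%, 1 (Malat1, in 38 biopsies) in 50% to 90%, 6 in fewer and 1 (Meg3) in none, and a biopsy held a median of 2 against 5 in a whole cell. Fewer genes per biopsy than per whole cell were also counted on other lists, with medians of 8 against 12 for NF-κB genes and 9 against 15 for cell cycle genes. For macrophage identity genes both medians were 16. The median share of the nuclear RNAs was 0.0571% of the counts, and the highest was 3.56%. A single biopsy of batch 5Reseq held Malat1 at 34202 CPM, against a batch median of 587.7. Neat1 and Kcnq1ot1 were counted in 18 and 19 biopsies and in 77.2% and 93.96% of the whole cells. Of 16 cell cycle genes, 1 (Hmgb2) was counted in at least 90% of the biopsies, 11 in 50% to 90% and 4 in fewer, with Mki67 and Top2a, both of dividing cells, in 26 and 27.

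The variation of markers between biopsies was then set beside that between whole cells. The coefficient of variation (CV, SD over mean of CPM within a batch) of Tnf was 0.492, 0.998, 0.907, 0.893 and 0.302 in batches 5Reseq, 6, 7, 8_8 and 9_4, against 1.08, 0.754 and 0.548 in whole cells of batches 8_8, 9_1 and scRNA. The CV that counting alone would give was 0.0313 to 0.0679 for Tnf in the biopsy batches. This covers the counting of reads and not the noise of capture and amplification, which was not measured. For Clec4e the CVs were 1.15, 1.61, 0.397, 0.948 and 0.627 against 0.562, 0.538 and 0.499, for Ccl4 0.634, 0.596, 0.519, 0.915 and 0.653 against 1.12, 0.989 and 0.762, and for Ccl3 0.481, 0.659, 0.415, 0.738 and 0.444 against 0.747, 0.556 and 0.510. An exact two-sided permutation test over batches (5 against 3, 56 splits, smallest possible p 0.0357) found p = 0.75 for Tnf, 0.25 for Clec4e, 0.0714 for Ccl4 and 0.571 for Ccl3. After Benjamini-Hochberg adjustment over the 4 markers these were 0.75, 0.5, 0.286 and 0.75, so that no difference in CV passed. The direction was higher in biopsies for Clec4e (mean CV 0.947 ± 0.472 against 0.533 ± 0.0318) and lower for Ccl4 (0.663 ± 0.1497 against 0.959 ± 0.183). Without the 12 even biopsies of batch 7, the difference of mean CV turned from negative to positive for Tnf (0.0765) and Ccl3 (0.0126).

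Most other genes varied more in biopsies. Over the genes with a mean of at least 200 CPM over the 5 biopsy sums (3.28% of the features kept), the median CV was 1.18 in biopsies and 0.525 in whole cells. A gene counted in few biopsies can enter through these, since the filter used the biopsies alone. Over the 4 batches with at least 9 biopsies, leaving out for a gene any batch in which it had no count (2.01% of these genes had such a batch), the biopsy CVs exceeded every whole-cell CV in 65.6% of the genes. With a count required in each of the 4 biopsy and 3 whole-cell batches this share was 66.0%, and with a count in at least 50% of the biopsies of each of the 4 batches (2.04% of features) it was 62.5%. Of the 88 list genes among them, 20 did so, and of these 9 were among the 16 macrophage identity genes, 3 among 8 NF-κB genes, 0 among 10 cytokines and chemokines and 0 among the 4 markers. Ranked from the most even gene, Ccl3, Ccl4, Tnf and Clec4e were at percentiles 2.82, 6.94, 8.65 and 14.1 in biopsies and at 57.2, 92.96, 84.2 and 53.4 in whole cells. The ratio of biopsy to whole-cell CV was 0.832, 0.650, 0.918 and 1.46 for the same genes, against a median of 2.21 over all of these genes and of 1.57 over the 40 genes with 2000 to 10000 CPM. Without the 12 even biopsies, which leaves 3 batches of at least 9 biopsies, 66.5% of the genes and 25 of the 88 list genes, Clec4e among them, had their biopsy CVs above every whole-cell CV, and the percentiles of Ccl3, Ccl4, Tnf and Clec4e in biopsies were 3.22, 8.05, 3.62 and 29.8. The ratios were then 0.865, 0.660, 0.652 and 1.76, against a median of 2.08. With all biopsies and 200 CPM required in the mean of the whole-cell sums too (2.50% of features, an alternative chosen after seeing the data, as were those on counts per batch), the same share as the 65.6% was 64.7%, the median CVs were 1.09 and 0.479, and the 4 markers were at percentiles 3.69, 8.83, 11.1 and 18.2 in biopsies. The percentiles share the libraries and fall with level, and no test was made of them.

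**Figure D4:**
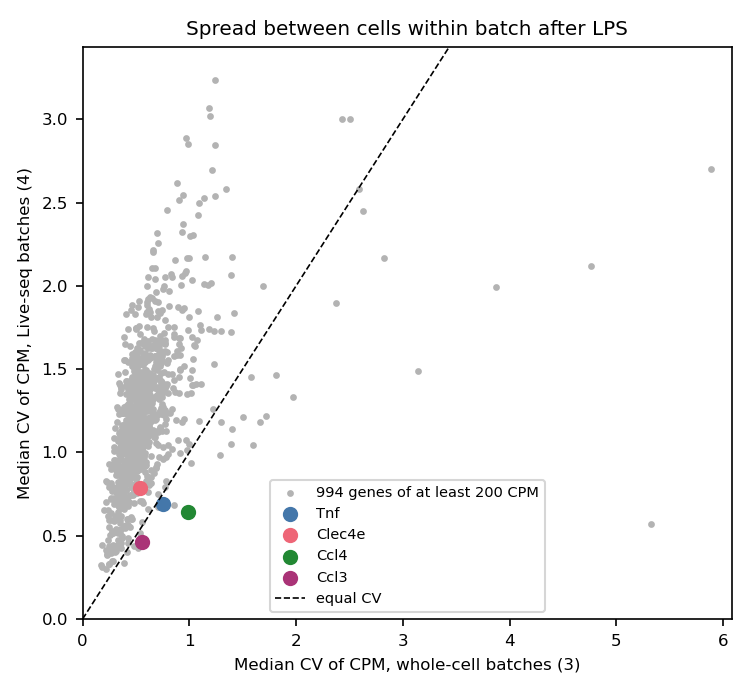
Median CV of CPM over the 4 RAW_LPS biopsy batches with at least 9 biopsies (y axis) against that over the 3 whole-cell batches (x axis) for the genes with at least 200 CPM, 1 point per gene, with the 4 markers named and the line of equal CV drawn. Most points lie above the line (median CV 1.18 against 0.525), and of the markers Clec4e lies above it and Tnf, Ccl4 and Ccl3 below.

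The most even genes of at least 200 CPM were Gapdh, Actb, Eef1a1, Gm13394 and Eno1, with median CVs of 0.302 to 0.331, and 26 genes had a count in all 50 biopsies. The most uneven were Avl9, P3h1, Tyw1, Gm10800 and 1810043G02Rik, with median CVs of 3.0 to 3.23 and a count in 2 to 17 biopsies. These CVs carry little information, since a gene counted in 1 biopsy of a batch has a CV fixed by the batch size (3 for 9 biopsies, 4 for 16), and that of 1810043G02Rik rests on 1 biopsy of batch 8_8. Gm13394 and Gm10800 have near-identical copies elsewhere in the genome, and their counts are uncertain. Cd14 was the most even of the receptors, with a median CV of 0.429. In the 12 even biopsies of batch 7, the CVs were lower still, 0.151 for Ccl3, 0.172 for Ccl4, 0.135 for Cd14, 0.285 for Clec4e and 0.383 for Tnf. In batch 9_4, whose libraries did not form such a set, those of Ccl3, Ccl4 and Tnf were 0.444, 0.653 and 0.302.

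The share of variance between batches was estimated on log2(CPM + 1), where biopsies without a count weigh heavily. An estimate below 0 was set to 0, so that 0% is no measured absence of batch differences. Of this variance over the biopsies, 0% lay between batches for Tnf, 7.8% for Clec4e, 4.9% for Ccl3 and 25.98% for Ccl4. Without the 12 even biopsies these shares were 12.8%, 0%, 7.07% and 23.1%. Within batches, Ccl4 and Ccl3, neighbours on chromosome 11, varied together, with a Spearman rho of 0.70 in batch 5Reseq (n = 11), 0.81 in batch 7 (n = 16), 0.62 in batch 8_8 (n = 9) and 0.55 in batch 9_4 (n = 10). Over the 12 even biopsies of batch 7 alone, rho was 0.59. No other pair of markers reached 0.5 in more than 1 batch. Tnf with Ccl3 ran from −0.19 to 0.19 and Tnf with Ccl4 from −0.20 to 0.30. Tnf with Nfkbia, the inhibitor of the factor that induces it, ran from −0.05 to 0.46. These are correlations across biopsies of a batch, and they carry no test. Both genes of a pair come from the same library in each biopsy and share its depth and composition.

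The number of genes, the share of the leading genes, the mitochondrial share and the likeness of cells were compared between the 5 biopsy batches and the 3 whole-cell batches. Biopsies held 2647 ± 793.4 genes at 50000 counts (SD, n = 5) against 5837 ± 301.02 in whole cells (n = 3), with ranges of batch means of 1696 to 3466 and 5529 to 6131. The 100 most abundant genes took 36.2% ± 4.23 of the counts against 26.5% ± 0.972. The mean correlation between pairs of cells of a batch was 0.441 ± 0.0923 against 0.772 ± 0.0443. Each of these 3 gave p = 0.0357 in the exact two-sided permutation test, the smallest it can give, and 0.0476 after adjustment over the 4 measures. The mitochondrial share was 9.00% ± 2.36 against 7.07% ± 1.58 (exact permutation p = 0.321). In batch 8_8, the one batch with both kinds of library, the values were 2126 against 5529 genes, 38.5% against 25.6% and 0.362 against 0.726. Biopsies were amplified with 24 PCR cycles and whole cells with 18, so that kind of sample and amplification cannot be told apart.

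**Figure D5:**
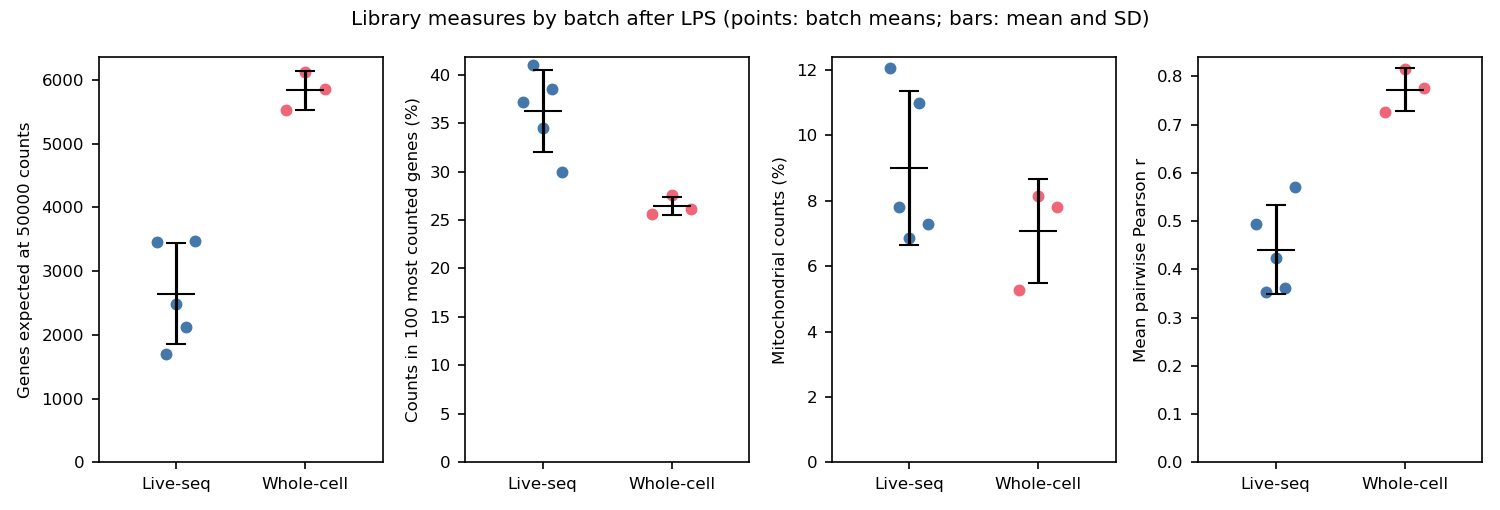
Batch means of the 4 library measures (y axes: genes at 50000 counts, percent of counts in the 100 most abundant genes, mitochondrial percent, mean correlation between pairs of cells) for 5 biopsy and 3 whole-cell batches of RAW_LPS cells, 1 point per batch, with the mean and SD. The biopsy batches lie at 1696 to 3466 genes and the whole-cell batches at 5529 to 6131, and only the mitochondrial shares overlap.

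Levels were compared between the summed biopsies of RAW-G9 (4 batches) and the summed whole cells (3 batches) over 10028 genes. With edgeR's quasi-likelihood test and an adjusted p under 0.05 with an absolute log2 fold change over 1, no gene was called higher in biopsies (0% of genes tested) and none lower (0%). At an unadjusted p under 0.05, 0.449% of genes (45) were higher and 4.87% lower in biopsies, the lowest adjusted p was 0.0810, and the median log2 fold change over all genes was −0.18. DESeq2 called 5 genes higher (0.0499%; Gm10801, Gm10717, Gm10800, Id1 and Itgb7, named after their values were seen) and 2.54% of genes lower, none of them among the list genes tested. The log2 fold change of biopsies over whole cells was 0.28 ± 0.27 (SE) for Tnf, −0.16 ± 0.34 for Clec4e, 0.06 ± 0.57 for Ccl4 and −0.08 ± 0.32 for Ccl3, with an edgeR adjusted p of 1.00 for each. These values rest on single batches. Without whole-cell batch 9_1 the log2 fold change of Ccl4 was 1.23 (edgeR unadjusted p = 0.0211, adjusted p = 0.618), and with each batch left out in turn it ran from −0.29 to 1.23, that of Clec4e from −0.37 to 0.20 and that of Ccl3 from −0.30 to 0.27. With the whole of batch 7 left out, edgeR also called none. With its 12 even biopsies alone left out, so that 4 biopsies stood for batch 7, edgeR called 0.00999% of 10007 genes higher (Cxcl2) and 4.38% lower, among which Ifi47 alone belonged to the lists, and the 4 markers were not called.

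All but 1 of the lists tested had a median above that of all genes, the constitutive genes (0.15) and the cell cycle genes (0.04) included, and the exception was the nuclear RNAs. The median log2 fold change was 0.44 for 16 cytokines and chemokines (11 above 0), 0.18 for 13 NF-κB genes, 0.59 for 12 feedback genes, 0.84 for 14 interferon-stimulated genes (12 above 0) and 0.32 for 16 macrophage identity genes, against −0.18 over all genes and −0.79 for 6 nuclear RNAs. None of their members was called by edgeR. Without the even biopsies of batch 7, the median of the interferon-stimulated genes turned to −0.53 (2 of 14 above 0), against −0.24 over all genes, and that of the feedback genes was 0.08. Cxcl2 came closest, at 5549, 1497, 1876 and 760 CPM in the biopsy sums of batches 6, 7, 8_8 and 9_4 and at 253.1, 612.2 and 428.3 CPM in the whole-cell sums of batches 8_8, 9_1 and scRNA. Its log2 fold change was 2.51 ± 0.60 with an edgeR adjusted p of 0.0913. Without the filter on low counts it was the single gene called (2.43, edgeR adjusted p = 0.00800), without the even biopsies of batch 7 its adjusted p was 0.0424 (2.79), and over 13 alternatives its log2 fold change ran from 1.75 to 2.87 and its adjusted p from 0.00800 to 0.333. Sqstm1 (1.72 ± 0.51, edgeR adjusted p = 0.222), Socs1 (−4.20 ± 1.16, edgeR adjusted p = 0.165) and Pkm, a glycolytic enzyme among the constitutive genes (0.55 ± 0.24, edgeR adjusted p = 0.866), also passed at an unadjusted p alone. Socs1 stood at 0.414 CPM or less in the RAW-G9 sums and at 3.39 CPM or less in whole cells, so that its fitted value rests on few counts.

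In 6 biopsies the labels mark the cell as sampled on an earlier or later occasion too, of which 4 have the other biopsy of the pair among the libraries. Ccl3 stood at 0 and 6432 CPM in sample97 and sample95 of batch 7, at 0 and 6492 in sample122 and sample214, at 80.4 and 5951 in sample830 and sample772 of batch 9_4 and at 111.6 and 15331 in sample816 and sample842, with the biopsy after LPS given last. Tnf stood at 0 and 1304, 0 and 2107, 53.6 and 2693, and 0 and 1630 CPM in the same pairs. Ccl3 and Tnf were thus higher after LPS in 4 of 4 cells. Clec4e was higher in 3 of 4 and went from 857.97 to 0 CPM in the pair of sample816 and sample842, which the labels both give as the first extraction. The libraries sample95 and sample214 belong to the even set of batch 7. The other 2 of the 6, sample22 and sample190, held Ccl3 at 1037 and 8276 CPM.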

How the data were processed

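The deposited table holds raw counts per gene for every library of the series. According to the study's methods and the submitters' processing notes, the authors demultiplexed with bcl2fastq 2.19.1, aligned reads of 75 bp to mm10 (GRCm38) with STAR 2.6.1c. HTSeq then counted the reads with a single match over the genes of Ensembl release 87, without regard to strand, so that overlapping and antisense genes cannot be told apart. The deposited counts are not normalized, carry no molecular identifiers, and the authors' stated limits were at least 1000 genes, at most 30% mitochondrial and at least 30% mapped reads. Over all features, all 50 RAW_LPS biopsies reached 1000 genes, and 2 of the 296 Live-seq libraries did not. Of the columns, 445 were used and 567 belong to other groups and were not used.

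Of 30452 features, 30340 were kept after removing, as in the study, 92 ribosomal protein genes and 20 genes found in negative controls. CPM were computed from the kept counts. Libraries were grouped by the labels for technique, line, treatment and batch. Batches are the replicates, and the labels do not say that they are separate cultures, so that p-values measure the spread between these batches. Detection means at least 1 count, and shares at 50000 counts are the values expected after thinning, for libraries at least that deep. Whole-cell and RAW-G9 biopsy sums were compared with edgeR 4.0.16 (glmQLFit with its legacy fit, TMM) in R 4.3.3, over genes that reached 2 counts in 15% or more of the libraries in either group, and filterByExpr with a minimum proportion of 0.05. DESeq2 1.42.0 was an alternative. Other tests are exact permutation tests over batches in scipy 1.17.1. Correlations used log2(CPM + 1) or ranks, in batches of at least 9 biopsies. The tests were tested on simulated data.

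Genes named are the members of the lists, the 10 with the highest mean CPM, the 5 most even and the 5 most uneven of at least 200 CPM, and up to 5 called in each direction. The members and lists were chosen with earlier results of these data known. Il36g is on a list and was not analysed here. A gene of the interferon-stimulated list is not reported here by name. The alternatives without the even biopsies of batch 7 (a mitochondrial share between 4% and 6%), without the 6 repeatedly sampled biopsies, the filter of 200 CPM on both means, the filters on counts per batch, and detection without batch 7 were chosen after seeing the data. Sequences are from RefSeq (GRCm38.p6).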

Additional observations from a re-analysis of the deposited data

Results flagged for a closer look

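Each value here lay apart from the others of its group by Dixon's criterion at 95%. Of 52 groups checked, 11 held such a value. Chance gives about 1 in 20 for groups chosen without regard to their values. Besides the 4 markers, the batch sums checked were those of Lyz2, Cxcl10, Il1rn, Rsad2, Ccl5, Malat1 and Il1b, which were picked by name. The 11 of 52 therefore cannot be set against that rate. Of single biopsies, sample8 of batch 6 held Clec4e at 5288 CPM, against a median of 444.6 in its batch (n = 4). In the same batch, sample22 had 0.175% of its counts in nuclear RNAs, against a median of 0.000670%. The library sample385 of batch 8_8 had 0.114% of its counts in interferon-stimulated genes, against a median of 0 (n = 9). The library sample815 of batch 9_4 stood apart for macrophage identity genes, with 4.14% of its counts against a median of 1.59% (n = 10), and for nuclear RNAs, with 0.477% against 0.0439%. Of the sums of the 5 batches, that of batch 5Reseq, the wild-type batch, stood apart for Lyz2 (23264 CPM, median of the batches 4761), Cxcl10 (1875, median 2.13), Il1rn (873.8, median 0), Rsad2 (2171, median 0.709) and Ccl5, a chemokine of T cells (2234, median 459.4, which is the sum of batch 7 and lies in its even biopsies alone). The sum of batch 7 stood apart for Il1b, at 1482 CPM against a median of 85.1, and stood at 92.1 CPM without its 12 even biopsies.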

How the results depend on the processing

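Of the alternative values, 74.4% kept their direction and their side of the threshold or stayed within the spread, and 57 did not. For the comparison of biopsies with whole cells, DESeq2 called 0.0499% of genes higher and 2.54% lower and edgeR without a filter on low counts called 0.00463% higher (the gene Cxcl2). Without the even biopsies of batch 7, edgeR called 0.00999% higher and 4.38% lower. The main test and the other alternatives, leaving out the whole of batch 7 included, called 0. The cause was not tested. With each batch left out in turn, the log2 fold changes ran from −0.37 to 0.20 for Clec4e, from −0.29 to 1.23 for Ccl4 and from −0.30 to 0.27 for Ccl3. Clec4e turned to 0.20 without scRNA-seq batch scRNA. Ccl4 turned to −0.17 without Live-seq batch 6, to −0.16 without 9_4, and to −0.29 without scRNA-seq batch 8_8 or scRNA. Ccl3 turned to 0.11 with wild-type batch 5Reseq added, to 0.13 without Live-seq batch 8_8 or without the even biopsies of batch 7, and to 0.27 without scRNA-seq batch 9_1. The sign for Tnf stayed positive in 13 of 13 alternatives. Detection of Tnf was 100% without batch 7.

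With Pearson correlations of log2(CPM + 1), the median over batches of Tnf with Clec4e was 0.32 in place of 0.01, and that of Clec4e with Ccl3 was −0.15 in place of 0.22, with the cause not tested. The differences in library measures kept their direction, but with a batch left out the exact permutation test has too few splits to pass after adjustment. Without batch 5Reseq they were −3392 genes, 9.54 points and −0.345, and with each of the other batches left out in turn they ran from −3395 to −2953 genes, from 8.58 to 11.4 points and from −0.364 to −0.310. For the CV of markers, the difference of biopsies from whole cells turned positive for Tnf and Ccl3 with the SD of log2(CPM + 1) (0.389 and 0.310) and without the even biopsies of batch 7 (0.0765 and 0.0126), for Tnf without Live-seq batch 9_4 (0.0301), and for Tnf and Ccl3 without scRNA-seq batch 8_8 (0.0672 and 0.0143), none of them past the test. With each batch left out in turn, these differences in CV ran from −0.196 to 0.0672 for Tnf and from −0.105 to 0.0143 for Ccl3. No paired analysis was possible because the groups compared share a single batch, 8_8. At 42061 kept counts in the shallowest biopsy, the 3 counts that a 0 allows limit low genes most.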
